A study of Drosophila melanogaster with 5 samples.

Results

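At the end of Drosophila spermatogenesis, sperm individualization strips the syncytial cyst of spermatids of most of its cytoplasm and encloses each sperm in its own membrane. Caspases, proteases best known from apoptosis, are switched on in this step without killing the cell, and ubiquitin ligases decide when and where they act. A cullin-RING ligase is built from a cullin scaffold, a RING protein that brings the ubiquitin-conjugating enzyme and an adaptor that holds the substrate. The genes described here were found by symbol among the caspase and ubiquitin genes of this step. The table searched held 12847 rows with 12782 distinct gene identifiers, and each row is counted here as a gene. Of 9 genes sought under 11 symbols, 4 were found: klhl10, Bruce, ntc and gdl. The other 5 genes, Dronc, Drice, Dcp-1, Dark and Cul3, were not analysed here, so neither the caspases nor the cullin of the pathway are covered by the values of these 4 genes.

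The RNA was recovered from ribosomes of whole testes of the Batumi strain, a laboratory stock kept at 25 °C. The adult males were aged 1 to 2, a range the labels give without a unit, and 1000 frozen testes went into an extract. Total ribosomes were the pelleted ribosomes of such an extract (2 libraries), and the βNACtes IP was the part of the pellet bound by antibodies raised against βNACtes, a form of the NAC chaperone's β-subunit found in germ cells (3 libraries). The comparison asks which transcripts sit on ribosomes that carry the germinal subunit. Both groups share strain, tissue and lysis, and they differ in the precipitation. The libraries hold no control precipitation, so RNA that came down without βNACtes cannot be told apart from RNA bound with it. An extract pools the germline of every stage with the somatic sheath and cyst cells and with any attached glands, so fewer cells of a type and less RNA per cell cannot be told apart. For each gene the table held 1 value per group, the authors' mean, so that no value given here has a replicate error, no difference was tested, and the depth of the libraries is unknown.

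The unit was taken to be FPKM, that is, sequenced fragments per kilobase of transcript, scaled for the size of the library. A relative log2 ratio is log2(FPKM + 0.1) in the βNACtes IP minus that in total ribosomes, centred on the median of the 9793 genes with a mean of at least 1 FPKM. This median was 0.73 before centring. The ratio understates the change of genes with low values. A gene is called higher at 1 or more and lower at −1 or less, which is a size and not a test. By this rule 26.4% of the 9793 genes were higher and 29.2% lower. Of the 11 germline markers found, 5 were higher and 1 lower, with a median of 0.04. They ran from aly, a spermatocyte gene, at 17.3 FPKM in the βNACtes IP and 84.0 FPKM in total ribosomes (−3.004), to dj, a sperm tail gene, at 638 and 82.3 FPKM (2.22). vas, sa and bam lay below the median of all genes at −0.34, −0.67 and −0.28, and bam passed the filter only through the βNACtes IP. Above that median lay 7 of the 11, and fzo (2.11), mia (1.85), bol (1.35) and twe (1.28) were called higher along with dj. bol fell to 0.11 relative to genes of similar exonic length. The summed level of 11 somatic markers was 4047 FPKM in the βNACtes IP against 10081 FPKM in total ribosomes, nearly all of it from 3 accessory gland genes, Acp26Aa, Acp36DE and Acp62F. The cyst cell marker tj was 0.32 FPKM in the βNACtes IP and listed at 0 in total ribosomes, and markers of the same lineage went against the sum, zfh1 with 4.45 and 0.975 FPKM (1.35) and eya with 8.53 and 1.58 FPKM (1.63). Of the 10 somatic markers that passed the filter, 2 were higher and 5 lower. The 2 higher markers were zfh1 and eya, and zfh1 passed the filter only through the βNACtes IP. Relative to genes of similar exonic length zfh1 was at 0.12 and eya at 0.97. On that scale 0 somatic markers were higher and 5 lower. The part of somatic RNA in the ratios below was not tested.

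All 4 genes passed the filter on low values. Of these, 3 genes (Bruce, gdl and ntc) were higher in the βNACtes IP and 0 were lower, beside 26.4% and 29.2% of all genes, and klhl10 lay near the median of all genes. The order of the relative log2 ratios was Bruce (2.20), gdl (1.87), ntc (1.14) and klhl10 (0.12). With 4 genes this count is a description of these genes alone. The levels spread more widely than the ratios. The highest gene, gdl, was 153 times the lowest, klhl10, in the βNACtes IP and 47.2 times in total ribosomes, and the order of levels, gdl, ntc, Bruce and klhl10, was the same in both groups. In the plot of levels, the βNACtes IP value lies to the right of the total ribosome value for each of these 4 genes.

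**Figure D1:**
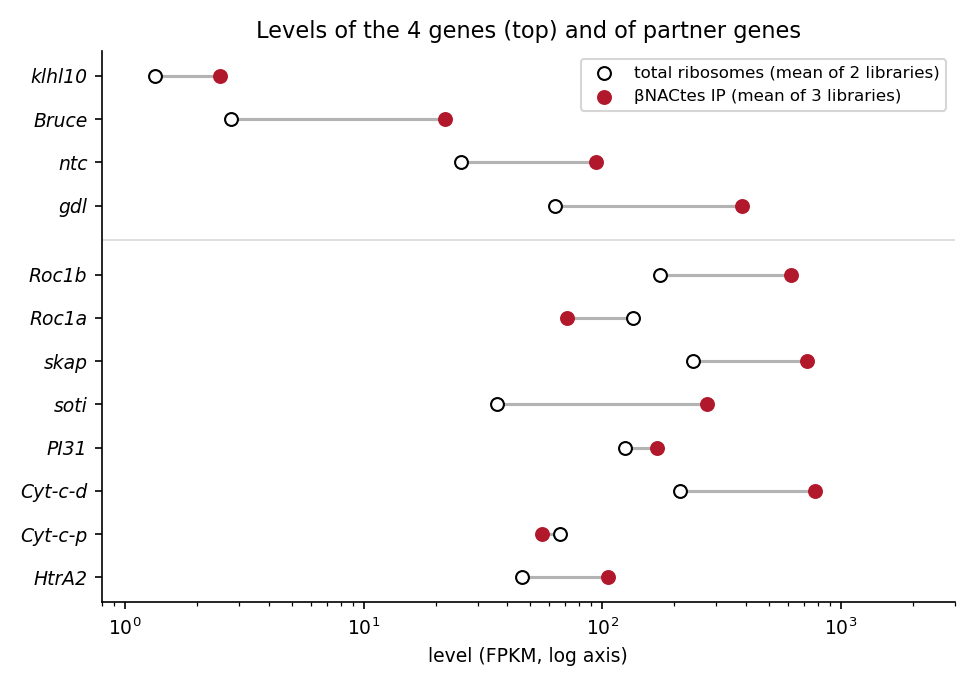
Level in FPKM on a log axis in total ribosomes (open circles, the authors' mean of 2 libraries) and in the βNACtes IP (red circles, the authors' mean of 3 libraries) for the 4 genes (top) and for 8 other genes. The plot title calls the others partner genes, but only soti, Roc1b, skap and PI31 are described here as partners. The gap is widest for Bruce and soti, and Roc1a and Cyt-c-p are the genes with the βNACtes IP value on the left. No error bars are drawn because each group is 1 value.

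klhl10 (FBgn0040038) encodes a BTB-Kelch protein that serves as the substrate adaptor of the testis Cul3 ligase. The Ensembl annotation of BDGP6, whose coordinates are not those of the dm3 build that the submitters' notes name, places it on an unmapped scaffold between 53442 and 85529 on the plus strand. The 7 exon blocks add up to 2905 bp in a span of 32088 bp, and both annotated transcripts encode 767 residues. An annotated flea element on the other strand shares 101 bp with the exons. The level was 2.50 FPKM in the βNACtes IP and 1.34 FPKM in total ribosomes, a ratio of 1.87 between the deposited means. This placed klhl10 at percentile 33.98 of all genes in the βNACtes IP and at percentile 34.8 in total ribosomes. It held place 8482 of 12847 genes in the βNACtes IP and place 8375 in total ribosomes, so its rank differed little between the groups. The relative log2 ratio of 0.12 was at percentile 52.7 of the kept genes. Its sign depended on the setting: it was −0.05 with a pseudocount of 1 and −0.16 relative to genes of similar exonic length. It was 1.64 when both columns were scaled to TPM, in which each column sums to a fixed total. Ratios of TPM were not centred, and their median over all kept genes was 1.55.

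Bruce (FBgn0266717) encodes a giant protein with a BIR domain and a ubiquitin-conjugating domain, which restrains caspases and is a substrate of the Cul3 ligase that klhl10 guides. The gene lies on chromosome 3R of BDGP6 between 10312039 and 10331353 on the minus strand. Its 33 exon blocks hold 15702 bp, at percentile 99.6 of the genes with a known length, and 5 annotated transcripts encode 4852 to 4976 residues. No other annotated gene shares its exons. The level was 21.9 FPKM in the βNACtes IP and 2.78 FPKM in total ribosomes, a ratio of 7.88. Bruce held place 7209 of 12847 genes in total ribosomes and place 4027 in the βNACtes IP. Of the 4 genes it had the highest relative log2 ratio, 2.20, which 783 of the 9793 kept genes exceeded. Exonic length moves with this value. Across 9700 genes, which are not independent, longer genes tended to have higher relative log2 ratios (rank correlation 0.33, Spearman, as a description), and the median of the longest 972 genes, from 4723 to 58996 bp, was 1.23. Relative to that median Bruce was at 0.97, just under the size called higher. In the plot of ratio by exonic length it lies just above the middle 50% of genes of its length, which ends at 1.93.

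**Figure D2:**
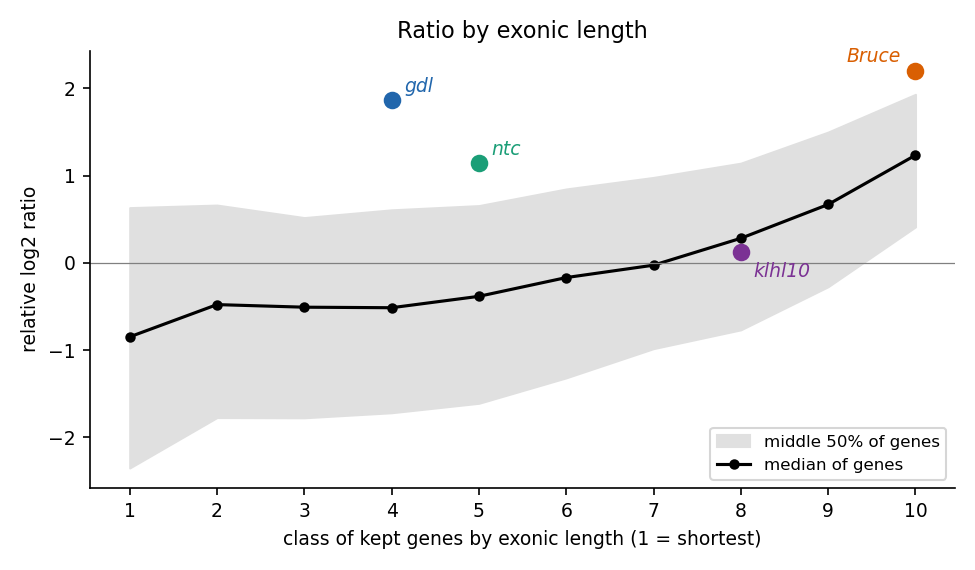
Relative log2 ratio of the βNACtes IP to total ribosomes (vertical axis) against 10 equal classes of kept genes by exonic length (horizontal axis, shortest first), with the median (black line) and the middle 50% (grey band) of the genes in each class. gdl (1.87), ntc (1.14) and Bruce (2.20) lie above the band, and klhl10 (0.12) lies just below the line, where the median is 0.28.

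ntc (FBgn0035461, nutcracker) encodes an F-box protein, the fly relative of mammalian FBXO7, which joins a Cul1 ligase and binds the proteasome regulator PI31 in spermatids. It lies on chromosome 3L between 3803832 and 3806459 on the minus strand, and its 1 annotated transcript has 1572 bp and encodes 314 residues. The level was 94.2 FPKM in the βNACtes IP and 25.7 FPKM in total ribosomes, a ratio of 3.67. The relative log2 ratio was 1.14, at percentile 76.3. It is the closest of the 3 higher genes to the limit of 1. Genes of its length were lower as a group, with a median of −0.38 between 1372 and 1662 bp, and relative to these ntc was at 1.53. The exons of CG32264 on the same strand share 639 bp with those of ntc, 40.6% of its exonic length. CG32264 was 25.5 FPKM in the βNACtes IP and 4.07 FPKM in total ribosomes, with a relative log2 ratio of 1.89. How reads in the shared exons were divided is not given in the sources used here, so the ratio of ntc is uncertain to that extent.

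gdl (FBgn0001099, gonadal) is a gene with transcripts of the male and female germline. It lies on chromosome 3L between 15509445 and 15511047 on the plus strand, with 3 exon blocks of 1175 bp in all, 3 annotated transcripts and 194 residues. The level was 383 FPKM in the βNACtes IP, place 349 of 12847 genes, and 63.2 FPKM in total ribosomes, place 1695. The ratio of these means was 6.06, and the relative log2 ratio was 1.87, at percentile 88.6. Relative to genes of 1115 to 1371 bp, whose median was −0.51, gdl was at 2.38, the highest of the 4 genes on that scale. The annotation gives gdl-ORF39 the same strand and 965 bp of shared exons, which is 82.1% of gdl, and Z600 shares 69 bp. Neither of these overlapping genes was analysed here, and the value of gdl may hold reads of all of them.

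**Figure D3:**
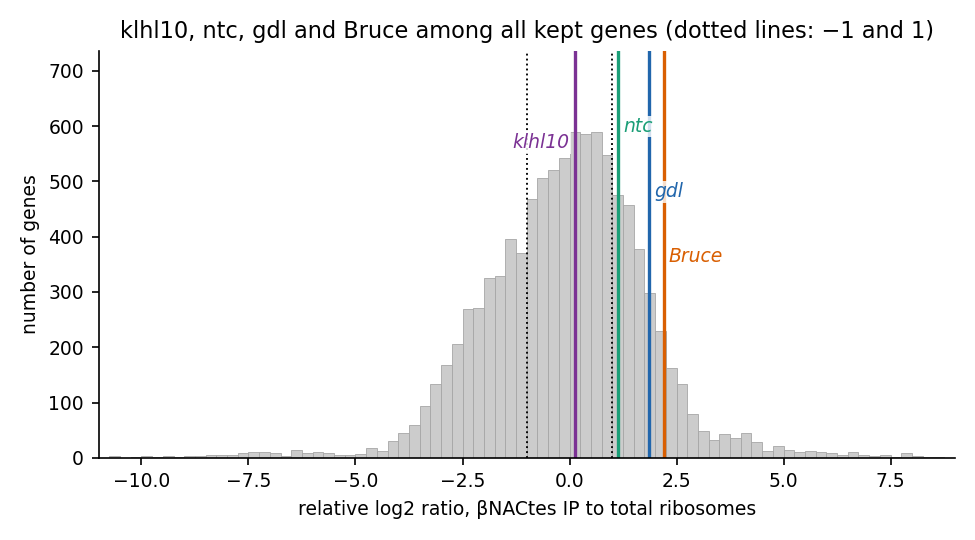
Number of the 9793 kept genes (vertical axis) by relative log2 ratio of the βNACtes IP to total ribosomes (horizontal axis, bins of 0.25), with coloured lines for klhl10 (0.12), ntc (1.14), gdl (1.87) and Bruce (2.20). klhl10 lies near the middle of the distribution, and the other 3 lines lie right of the dotted line at 1.

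Differences between genes move little when a whole column is rescaled, through the pseudocount alone. Bruce exceeded klhl10 by 2.08 on the log2 scale, so that the substrate was 2.07 times its adaptor in total ribosomes and 8.74 times in the βNACtes IP, in FPKM per gene. gdl exceeded klhl10 by 1.75 and ntc exceeded it by 1.02 on the same scale. The difference of gdl minus Bruce was −0.34. With TPM scaling Bruce exceeded klhl10 by 2.11 and gdl exceeded it by 1.80. Relative to genes of similar length the differences were not stable, since that of gdl minus Bruce turned to 1.41 and that of Bruce minus klhl10 was 1.13. None of these differences could be set against replicate error.

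The 3 known partners of klhl10 described here, soti, Roc1b and skap, had levels per length far above that of klhl10 itself. soti encodes the small protein Soti, an inhibitor of the klhl10 ligase that acts as a decoy substrate. It was 275 FPKM in the βNACtes IP and 36.1 FPKM in total ribosomes, 110 and 26.9 times klhl10. Its relative log2 ratio of 2.20 differed from that of Bruce by −0.01. Roc1b encodes the RING protein found in the testis ligase, and it was 620 and 175 FPKM with a relative log2 ratio of 1.10. skap, now ScsbetaA, encodes a β-subunit of the Krebs cycle enzyme succinyl-CoA synthetase that binds klhl10 at the mitochondrial surface and activates the ligase. It was 723 and 240.03 FPKM, with a relative log2 ratio of 0.86, short of the size called higher.

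The RING proteins formed a contrast between paralogs. Roc1a, the widely used RING subunit of cullin ligases, was 71.4 FPKM in the βNACtes IP and 134 FPKM in total ribosomes. Its relative log2 ratio was −1.64. With TPM scaling, which was not centred, it was −0.07 beside a median of all genes of 1.55. Roc1b exceeded Roc1a by 2.74 on the log2 scale. In total ribosomes Roc1b was 1.30 times Roc1a, and in the βNACtes IP it was 8.69 times. The cytochrome c genes had the same arrangement. Cyt-c-d, which is needed for caspase activation in spermatids, was 780 and 212 FPKM with a relative log2 ratio of 1.15. Cyt-c-p, the cytochrome c of respiration in the soma, was 55.9 and 66.8 FPKM with −0.99. With TPM scaling Cyt-c-p was at 0.58, also below the median of all genes on that scale. Cyt-c-d was thus 3.18 times Cyt-c-p in total ribosomes and 13.95 times in the βNACtes IP. These 2 pairs were chosen for description after their values were seen. PI31, the binding partner of ntc, was 169 FPKM in the βNACtes IP and 125 FPKM in total ribosomes, a relative log2 ratio of −0.29. Without centring it was 0.44, below the median of all genes, 0.73. ntc exceeded PI31 by 1.43 on the log2 scale, while its level was 0.206 of that of PI31 in total ribosomes and 0.558 in the βNACtes IP.

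Of 32 genes listed for cullin-RING ligases and their regulators, 20 were found and passed the filter. In this list 5 genes were higher and 3 lower, 25.0% and 15.0% beside 26.4% and 29.2% of all genes, and the median relative log2 ratio was −0.14. The list as a group therefore lay close to the middle of all genes. With TPM scaling, which was not centred, its median was 1.43 and that of all genes was 1.55. The genes with the largest values were rdx (2.91) and Keap1 (2.77), which encode substrate adaptors of Cul3, slmb (2.80), which encodes an F-box adaptor of Cul1, and soti (2.20). rdx was 4.13 FPKM in the βNACtes IP and 0.24 FPKM in total ribosomes, and Keap1 was 2.51 and 0.13 FPKM, so these ratios rest on low levels of total ribosomes. Both genes passed the filter only through the βNACtes IP, and both are among the 5 genes counted as higher. slmb was 70.2 and 5.98 FPKM. SkpA and Cul1, which join F-box proteins such as ntc, were not analysed here.

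Of 20 genes listed for the core of apoptosis, 8 were found and 6 passed the filter. Of these, 2 were higher and 1 lower, 33.3% and 16.7% beside 26.4% and 29.2% of all genes. The median of the list was −0.25, or 1.31 with TPM scaling, where the median of all genes was 1.55. Cyt-c-d and grim were the genes called higher, and only 1 gene was with a pseudocount of 1 or with a minimum mean of 10 FPKM. grim, an antagonist of inhibitors of apoptosis, was 4.29 FPKM in the βNACtes IP and 0.855 FPKM in total ribosomes, with a relative log2 ratio of 1.47, and it passed the filter only through the βNACtes IP. Buffy, a Bcl-2 relative, was the lower gene at 16.3 and 29.1 FPKM, a relative log2 ratio of −1.57, whereas with TPM scaling it was 20.2 TPM in each group. HtrA2, a mitochondrial protease that can promote caspase activity, was 106 and 46.2 FPKM with 0.46. Only 2 caspase genes were among those found. Dredd, the caspase of the Imd immune pathway, was 5.89 and 6.93 FPKM with −0.96, or 0.59 with TPM scaling. Damm was 1.24 and 0.52 FPKM and failed the filter, as did rpr, another IAP antagonist, at 0.59 FPKM and listed at 0 in total ribosomes. The levels of klhl10 lay between those of Damm and Dredd in both groups, while Bruce was above both of these caspases in the βNACtes IP and below Dredd in total ribosomes.

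Of 28 other genes listed for sperm individualization, which act in the actin cones, in membrane traffic and in the regulation of translation, 24 were found and passed the filter. In this list 11 genes were higher and 2 lower, 45.8% and 8.33% beside 26.4% and 29.2% of all genes, with a median of 0.26. The list has long genes, with a median of 3617 exonic bp against 1663 bp over all kept genes. Relative to genes of similar length its median was 0.42, but 8 of the 24 genes were higher and 6 of the 24 lower. On that scale 25.1% of all genes were higher and 27.3% lower. The highest ratio was that of orb2 (3.00), which encodes a CPEB-family regulator of translation in spermatids, at 392 and 29.4 FPKM. jar, which encodes the myosin VI that stabilizes the actin cones, followed at 102 and 9.29 FPKM with 2.71. eIF4G2, a testis form of the scaffold of the cap-binding complex, was 158 and 17.3 FPKM with 2.46. didum, a myosin V, was 80.3 and 9.94 FPKM with 2.27. Relative to genes of similar length orb2 was at 1.77, jar at 1.48, eIF4G2 at 1.22 and didum at 1.04. klhl10, Bruce, ntc and gdl all fell within the range of the whole list, from −1.54 to 3.00. Tango7, which directs caspase activation in this step, was not analysed here.

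**Figure D4:**
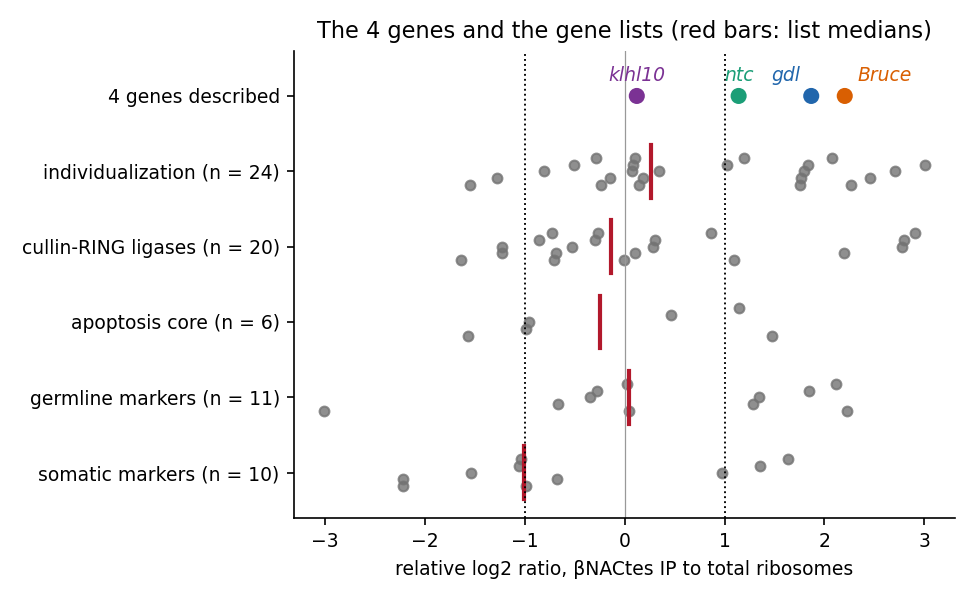
Relative log2 ratio of the βNACtes IP to total ribosomes (horizontal axis) for the 4 genes (top) and for the kept genes of 5 lists, each point a gene and each red bar the median of its list. The medians are 0.26 for individualization, −0.14 for cullin-RING ligases, −0.25 for the apoptosis core, 0.04 for germline markers and −1.01 for somatic markers, with dotted lines at −1 and 1. With TPM scaling, which is not centred, all of these medians lie above 0, and the median of all genes is 1.55.

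The calls of the 4 genes under other scalings are shown in the plot of settings. Without centring, the log2 ratios were 2.93 for Bruce, 2.60 for gdl, 1.87 for ntc and 0.85 for klhl10, and on that scale 43.6% of all genes were higher and 18.3% lower. With TPM scaling they were 3.75 for Bruce, 3.44 for gdl, 2.71 for ntc and 1.64 for klhl10, and then 62.1% of all genes were higher and 8.75% lower. The summed level of the 4 genes was 64.8 TPM in total ribosomes and 625 TPM in the βNACtes IP, most of it from gdl with 44.0 and 477 TPM. Relative to genes of similar length the order changed to gdl (2.38), ntc (1.53), Bruce (0.97) and klhl10 (−0.16), with 25.1% of all genes higher and 27.3% lower. gdl and ntc passed 1 in each of these settings.

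**Figure D5:**
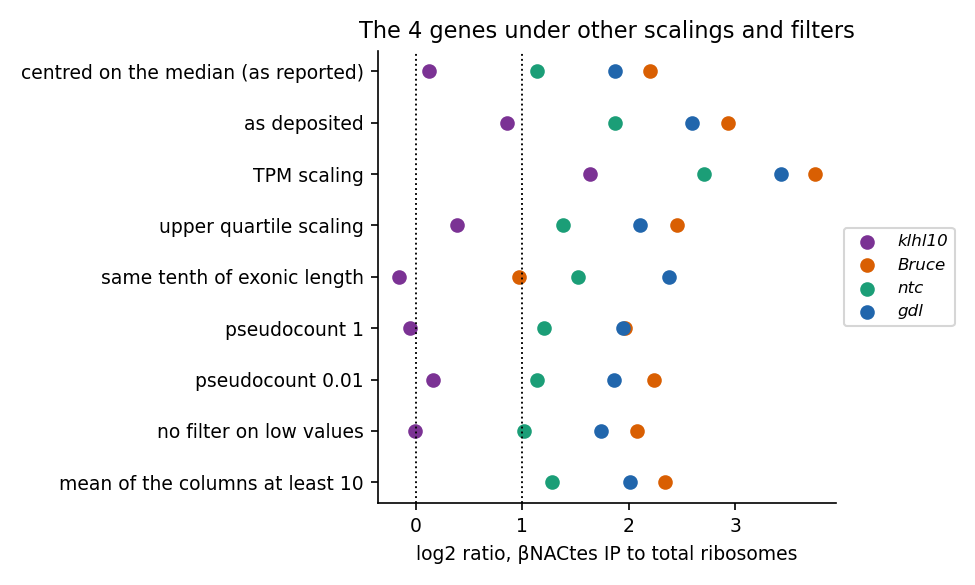
Log2 ratio of the βNACtes IP to total ribosomes (horizontal axis) for klhl10, Bruce, ntc and gdl under the reported setting (top) and 8 alternatives. gdl lies between 1.74 and 3.44 and ntc between 1.01 and 2.71, Bruce falls to 0.97 relative to genes of similar length, and klhl10 lies on either side of 0 and has no value with a mean of at least 10 FPKM.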

How the data were processed

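RNA of testis ribosomes was sequenced in 5 libraries (βNACtes IP, 3; total ribosomes, 2). The authors deposited 1 table with a mean per group, here treated as FPKM: the header names no unit, Cufflinks 2.2.1 is in the submitters' processing notes with TopHat2 2.0.14 and the dm3 build, and value times exonic length sums to 1098120 and 1098790. A deposited log2 ratio of the 2 means is the authors' comparison and was not used. Treatment of reads that match several genes is not given in the sources used here.

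Ratios used a pseudocount of 0.1, a minimum mean of 1 FPKM and centring on the median over the whole table, in Python 3.11.15 with numpy 2.4.6 and pandas 2.3.3. The code was checked on simulated data with planted changes, a check that does not bear on the calls of real genes. Lengths, coordinates and overlaps came from Ensembl release 115 (BDGP6), and 136 rows of the table had no match there. No p-value was computed, since each group is 1 mean. Genes outside the symbols sought were named as known direct partners, as the 4 largest ratios of a list or as overlapping genes. Dredd, Damm, rpr, vas, sa, bam, bol, twe, tj, zfh1, Roc1a, Nedd8, CSN5, CSN8, Duba and the Arp2/3 genes were named after their values were seen. The genes and lists were chosen with earlier results of these data known, and the lists were not tested. No sequences were printed because none were used here.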

Additional observations from a re-analysis of the deposited data

How the results depend on the processing

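Among the 4 genes, 3 were called higher in the reported setting and 0 lower, beside 26.4% and 29.2% of all genes. Over the 8 alternatives the count of higher genes was between 2 and 4, with 0 called lower in each. It was 2 relative to genes of similar exonic length, where 25.1% of all genes were higher and 27.3% lower. The count was 4 with TPM scaling, where 62.1% of all genes were higher and 8.75% lower. Bruce missed the size called higher in 1 alternative (0.97, by exonic length). klhl10 turned below 0 in 3 alternatives, to −0.16 by exonic length, −0.05 with a pseudocount of 1 and −0.01 without a filter on low values. It was called higher with TPM scaling (1.64), where the median of all genes was 1.55. With a minimum mean of 10 FPKM it has no value. gdl ranged from 1.74 to 3.44 and ntc from 1.01 to 2.71. The share of higher genes among all genes past the limits was 47.5% in the reported setting, 70.5% without centring, 87.6% with TPM scaling and 55.8% with upper-quartile scaling, so calls of all genes depend on the scaling. The median of the somatic markers was −1.01 in the reported setting and 0.55 with TPM scaling. Ratios of TPM were not centred, and their median over all kept genes was 1.55. The somatic median thus lay below that of all genes in both settings. No paired analysis was possible because the table holds 1 mean per group, and leaving out single libraries was not run for the same reason. The depth of the libraries is unknown, so the precision of low values such as those of klhl10 cannot be given.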

Other observations

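The COP9 signalosome removes NEDD8 from cullins and so resets cullin-RING ligases. Of its 8 subunits in the table, 0 were called higher in the βNACtes IP and 2 lower, CSN5 (−1.23) and CSN8 (−1.22). These shares were 0% higher and 25.0% lower, beside 26.4% and 29.2% of all genes. The relative log2 ratios of the 8 subunits ran from −1.23 to 0.30 with a median of −0.60. CSN5, the catalytic subunit, was 48.2 FPKM in the βNACtes IP and 68.1 FPKM in total ribosomes. With TPM scaling, which was not centred, its log2 ratio was 0.34, below the median of all genes, 1.55. Nedd8 itself was 113 and 68.6 FPKM, at −0.01.

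Among the genes of the actin cones, the 5 subunits of the Arp2/3 complex in the table were uneven. Arp2 was 26.2 FPKM in the βNACtes IP and 3.66 FPKM in total ribosomes with a relative log2 ratio of 2.08, whereas Arp3 was 10.9 and 11.5 FPKM with −0.81. With TPM scaling Arp3 was at 0.75, also below the median of all genes, 1.55. Arpc1, Arpc2 and Arpc3A had relative log2 ratios between 0.10 and 0.18. CG6091, now Duba, a deubiquitinase needed for caspase activation in individualization, was 194 and 33.6 FPKM with 1.80. The genes of these 2 paragraphs were chosen after their values were seen, and no difference among them was tested.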
